A study of Mus musculus with 7 samples.

Results

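The replication-dependent histone genes were taken as the protein-coding genes whose symbol begins with Hist1h, Hist2h, Hist3h or Hist4h in the annotation of the mouse genome build GRCm38, and they came to 67 of the 53458 genes with values. They comprised 6 genes of the linker histone H1, 18 of H2A, 18 of H2B, 12 of H3 and 13 of H4. RNA had been sequenced from cells sorted as long-term hematopoietic stem cells (LT-HSCs), a scarce marrow population able to rebuild all blood lineages. The cells were sorted from marrow of aged C57/BL6 mice as positive for Sca1, cKit and CD150 and negative for Flt3, CD48 and the lineage antigens Gr1, Mac1, CD3, B220 and Ter119. There were 4 wild-type libraries (labelled Srp72+/+, called WT here) and 3 libraries from mice heterozygous for Srp72 (Srp72+/-), which encodes a protein of the signal recognition particle. The labels give neither the ages in months nor how the Srp72 allele was made, and no treatment.

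Replication-dependent histone genes supply the core histones and linker histones that package new DNA, and their mRNAs accumulate in S phase, the part of the cell cycle in which DNA is copied. Their primary transcripts usually lack introns, and the mature mRNAs end just after a short stem-loop in place of a poly(A) tail. The stem-loop is bound by SLBP, and transcription of the gene clusters depends on NPAT. Most LT-HSCs are out of the cell cycle, so little histone mRNA is usual for them. The amplification kit named in the labels primes complementary DNA with random as well as oligo(dT) primers, so that RNA without a poly(A) tail can enter the libraries.

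The 67 genes lie in 4 clusters. The Hist1 cluster on chromosome 13 (21715763 to 23934851) held 54 genes, the Hist2 cluster on chromosome 3 (96219865 to 96270132) held 10, the Hist3 cluster on chromosome 11 (58948920 to 58956830) held 2, and Hist4h4 stood alone on chromosome 6 (136801553 to 136804415). The genes encode few different proteins: the 13 H4 genes share 1 protein sequence, the 12 H3 genes share 2, and all 67 genes encode 30. The 3′ stem-loop, searched by its conserved 16-base pattern after the stop codon, was found in 36 of the 67 genes. In 26 of these it had 1 common sequence, and the 3 other sequences occurred in 7, 2 and 1 genes. It was present in the last 500 bases of 1 of 58726 protein-coding transcripts of other genes. The sites below are shown because they include the H1 and H4 genes with the most reads and the members of the small Hist3 and Hist4 clusters, and capitals mark the stem-loop. All lie in the exon after the stop codon, in the 3′ untranslated region, at GRCm38 coordinates. The H4 form differs from the others in its stem, and the loop between the stems is shared.
Hist1h1e (chr13:23621776-23621802, minus strand): ccaaaGGCTCTTTTCAGAGCCacccac
Hist1h1c (chr13:23739507-23739533, plus strand): caaaaGGCTCTTTTCAGAGCCaccact
Hist2h2aa1 (chr3:96246027-96246053, plus strand): aaaaaGGCTCTTTTCAGAGCCacccac
Hist1h2bg (chr13:23571838-23571864, plus strand): ccaaaGGCTCTTTTCAGAGCCacccat
Hist3h2a (chr11:58955167-58955193, plus strand): ccaaaGGCTCTTTTCAGAGCCacccac
Hist3h2ba (chr11:58949344-58949370, plus strand): ccaaaGGCTCTTTTCAGAGCCaccttc
Hist1h4d (chr13:23581945-23581971, plus strand): ccaaaGGCCCTTTTCAGGGCCactacc
Hist4h4 (chr6:136803992-136804018, minus strand): acaaaGGCCCTTTTCAGGGCCcacaaa

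Annotated gene models, taken for each gene from its transcript with the most reads, did not treat the 3′ end alike. The model ended within 100 bases of the stem-loop in 18 genes and ran further past it in 17. It was spliced in 3 genes, and in 29 it held no stem-loop. Some of these ran well past the stop codon without a match to the searched pattern, such as Hist2h4 (1311 bases) and Hist2h2be (2192 bases). In 16 the model stopped at the stop codon or within 2 bases of it. Reads that fall after the end of a short model were therefore not counted for its gene. Where long forms without the stem-loop end exist, their reads past the end of a short model were counted only for genes with long models.

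Promoter windows from RefSeq on GRCm38.p6, covering 250 bases before to 50 bases after the start, matched 62 of the 67 genes. The octamer ATTTGCAT, a site known to be bound by Oct-1, was sought on both strands and was found in 7 of 18 H2A windows and 6 of 16 H2B windows. It was in 0 windows of the H1, H3 and H4 genes, and in 1.74% of all 32851 windows. The TATA box letters TATAAA, also sought on both strands, were in 35 of the 62 windows (56.5%) and in 13.6% of all windows. H2A and H2B genes commonly stand head to head and share the stretch between them: 12 such pairs had starts at most 500 bases apart, 12 of them 1 H2A and 1 H2B gene, with 176 to 306 bases between the starts. Windows of such a pair overlap, so their motifs are not independent. The windows below are those of an H2B gene with the usual order of octamer and TATA box and of Hist2h2ac, whose partner Hist2h2be had values that ran against its own. Capitals mark the octamer, or its reverse complement, and the TATA box.
Hist1h2bg promoter (chr13:23571150-23571449, plus strand): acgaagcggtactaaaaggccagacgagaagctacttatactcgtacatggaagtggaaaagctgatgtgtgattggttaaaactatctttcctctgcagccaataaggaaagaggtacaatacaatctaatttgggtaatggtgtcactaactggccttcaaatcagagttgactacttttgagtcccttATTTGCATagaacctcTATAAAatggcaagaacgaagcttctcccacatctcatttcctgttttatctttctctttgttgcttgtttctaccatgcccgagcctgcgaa
Hist2h2ac promoter (chr3:96220831-96221130, minus strand): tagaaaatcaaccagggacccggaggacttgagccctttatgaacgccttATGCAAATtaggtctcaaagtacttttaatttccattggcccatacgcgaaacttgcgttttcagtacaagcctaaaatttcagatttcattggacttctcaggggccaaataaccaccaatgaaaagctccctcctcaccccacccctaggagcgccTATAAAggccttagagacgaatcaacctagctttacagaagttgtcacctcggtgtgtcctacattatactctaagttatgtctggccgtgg

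The libraries held between 18054322 and 35247472 estimated reads. Srp72 itself was at 99.6, 137, 103 and 88.4 CPM (read counts scaled to the library's size) in WT 1, 2, 3 and 4 and at 71.9, 45.7 and 110 CPM in those labelled Srp72+/- 1, 2 and 3. Values across WT and across Srp72+/- follow this order of libraries throughout. The library labelled Srp72+/- 3 thus lay inside the WT range. Of the 10 HSC markers examined, 10 were lowest in WT 2, with a sum of 165 CPM there against 2030 to 2565 CPM in the other WT libraries and 1269 to 2073 CPM in the Srp72+/- libraries. Summed neutrophil markers, 8 of 8 highest in WT 2, were at 38801 CPM there, 119 to 8520 CPM in the other WT and 1149 to 12000 CPM in the Srp72+/- libraries. B cell markers (6 of 8 highest in WT 2) summed to 10280 CPM in WT 2, 56.9 to 797 CPM in the other WT and 241 to 4224 CPM in the Srp72+/- libraries. Erythroid markers (7 of 10) summed to 8194, 403 to 605 and 488 to 6176 CPM in the same order, and monocyte markers (4 of 4) to 3878, 149 to 1288 and 304 to 1885 CPM. The 4 T cell markers summed to at most 9.91 CPM, and the 5 megakaryocyte markers were highest at 705 CPM in the library labelled Srp72+/- 3. No marker on these lists was at or under 3 counts in all 7 libraries. Srp72+/- 1 came second to WT 2 in neutrophil, erythroid, B cell and monocyte markers. The part that such cells have in the histone values was not tested, and in bulk RNA a larger number of cycling cells and more histone mRNA per cell cannot be told apart.

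Histone transcripts made up a small share of these libraries, and WT 2 and the library labelled Srp72+/- 3 held the most. The summed level of the 67 genes in TPM, a level per length, was 1118, 2334, 1191 and 631.2 across WT. It was 1442, 1295 and 2222 TPM in those labelled Srp72+/- 1, 2 and 3. This corresponds to between 0.0631% and 0.233% of all TPM. As CPM, which does not correct for length, the total was 1009, 2776, 937.6 and 583.9 across WT and 1130, 933.1 and 2106 across Srp72+/-. The WT 2 total was 3.29 times the mean of the other 3 WT libraries, and that of the library labelled Srp72+/- 3 was 2.04 times the mean of the other Srp72+/- libraries. The groups overlapped, with the highest and the lowest total both in WT, and the means were 1330 ± 984 CPM (SD, n = 4) and 1390 ± 628 CPM (SD, n = 3).

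**Figure D1:**
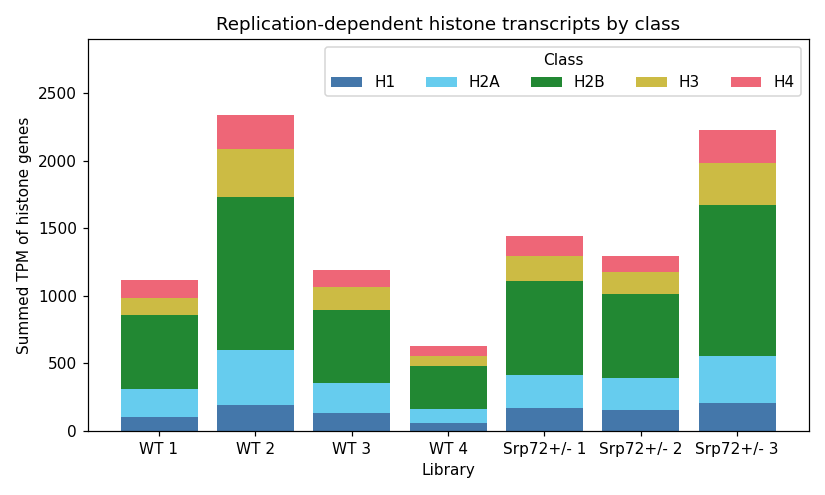
Summed TPM of the 67 histone genes in each library, with 1 stacked bar per library and 1 colour per class. The bars of WT 2 (2334 TPM) and of the library labelled Srp72+/- 3 (2222 TPM) are the tallest, WT 4 (631.2 TPM) is the lowest, and H2B takes between 45.7% and 50.4% of each bar.

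The make-up of the total varied little between libraries although its size varied. H2B transcripts held 45.7% to 50.4% of the histone TPM, H2A 15.9% to 18.3%, H3 11.2% to 15%, H4 9.23% to 12.2% and H1 8.11% to 11.7%. The H1 share was lowest and the H3 share highest in WT 2. Shares per length depend on how the models are drawn. For 34 genes, with models of up to 534 bases, the effective length in the deposited tables was 1 value in all libraries, far below the model length (132.0 bases for the 381-base models of Hist1h2bl and Hist1h2bq, and 63.0 bases for the 312-base model of Hist1h4k). With CPM per kilobase of the whole model instead, a scale chosen after seeing the data, H2B held 39.2% to 43.6%, H1 12.3% to 18.7%, H2A 15% to 16.9%, H3 12.2% to 16.5% and H4 9.81% to 13.7%. H2B was the largest class on both per-length scales in all 7 libraries. In CPM, which is not corrected for length, H1 held 26.1% to 38.4% and H2B 26.2% to 30.5% of the histone reads, and H1 was the larger in 6 of 7 libraries, all but WT 2.

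A few genes carried most of the signal. The 5 genes with the highest mean TPM held 50.3% of the histone TPM, the top 10 held 68.0% and the top 20 held 86.0%. A mean of at least 10 TPM was reached by 26 genes, 31 were between 1 and 10 TPM, and 10 were under 1 TPM. Of the 67 genes, 55 had more than 3 counts in every library and Hist1h2aa was the 1 gene with no more than 3 in any. The least abundant included Hist1h2aa and Hist1h2ba, which encode H2A and H2B forms best known from testis, at no more than 0.192 CPM and 0.128 CPM in any library. Hist1h1t, the testis linker histone, reached 0.847 CPM across Srp72+/- 1 and was at or under 0.192 CPM elsewhere.

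Among the linker histones, which bind the DNA between nucleosomes, Hist1h1e had the most reads. It was at 160.3, 378.1, 154.5 and 91.2 CPM in WT 1, 2, 3 and 4 and at 180.8, 228.7 and 356.6 CPM in those labelled Srp72+/- 1, 2 and 3. WT 2 was the highest and WT 4 the lowest, so the Srp72+/- values lay inside the WT range, and the log2 fold change was 0.38 (SE 0.47, edgeR quasi-likelihood test, unadjusted p = 0.441). Hist1h1b was at 26.7, 139.5, 33.6 and 23.1 CPM across WT and 62.4, 31.6 and 104.1 CPM across Srp72+/-, with WT 2 far above the other WT libraries. Hist1h1c was less spread, at 87.2, 139.9, 80.0 and 53.6 CPM across WT and 76.8, 67.3 and 113.4 CPM across Srp72+/-. Per length, Hist1h1e and Hist1h1b stood close together, at a mean of 50.5 and 47.8 TPM, above Hist1h1c at 26.7 TPM. Hist1h1a and Hist1h1d had lower means of 18.2 and 1.06 TPM. The Hist1h1d model is 7425 bases long, which lowers its level per length.

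H2A, which pairs with H2B in the nucleosome, was led by Hist1h2ak. Its values were 34.1, 115.3, 28.6 and 14.6 CPM across WT and 35.6, 26.1 and 64.3 CPM across Srp72+/-, again with WT 2 highest and WT 4 lowest. Hist1h2ap was at 15.1, 43.2, 10.4 and 6.20 CPM across WT and 19.5, 8.34 and 34.6 CPM across Srp72+/-. Hist2h2aa1 and Hist2h2aa2 have the same coding sequence, and Hist2h2aa2 held reads in 2 libraries only, at 17.0 and 11.9 CPM in those labelled Srp72+/- 2 and 3. How the reads were divided between this pair is uncertain. Summed, they were at 25.5, 65.42, 32.52 and 17.62 CPM across WT and 17.26, 31.1 and 57.22 CPM across Srp72+/-, with a log2 difference of 0.00 between the groups' mean log2 sums.

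The 2 H2B genes Hist1h2bl and Hist1h2bq held 66.2% of the H2B level, with means of 252 and 219 TPM. In reads, Hist1h2bl was at 67, 209.1, 54.4 and 38.5 CPM across WT and 75.7, 55.7 and 189.3 CPM across Srp72+/-. Hist1h2bq was at 59.2, 187.4, 68.3 and 37.5 CPM across WT and 66.8, 50.5 and 131.5 CPM across Srp72+/-. Both followed the order of the totals at their ends, with WT 2 first, the library labelled Srp72+/- 3 second and WT 4 last. Hist1h2bn was lower, at 17.1, 53.4, 8.59 and 10.1 CPM across WT and 15.1, 13.3 and 41.1 CPM across Srp72+/-. The 3 genes with spliced models, Hist1h2bc, Hist1h2be and Hist1h2br, were all H2B genes. One spliced transcript took 85.6% of the reads of Hist1h2be over all libraries and one took 93.1% of those of Hist1h2br. A spliced form held 1.26% of those of Hist1h2bq. The annotation has an unspliced coding model for Hist1h2bq but none for Hist1h2be or Hist1h2br. These shares therefore do not show how much of the RNA was spliced.

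H3 and H4 form the inner tetramer of the nucleosome. Hist2h3b led H3 at a mean of 91.5 TPM, with 36.9, 162.8, 38.1 and 23.8 CPM across WT and 55.2, 35.2 and 105.9 CPM across Srp72+/-. Its group means differed by less than the spread within each group (log2 fold change 0.00, SE 0.69). Hist1h3h was at 3.70, 21.2, 9.88 and 4.23 CPM across WT and 4.08, 4.60 and 24.0 CPM across Srp72+/-, so that the library labelled Srp72+/- 3 exceeded WT 2. Hist1h3i showed the usual order instead, at 3.31, 24.2, 7.77 and 1.98 CPM across WT and 8.79, 4.95 and 10.3 CPM across Srp72+/-.

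Hist1h4d held most H4 reads, at 150.7, 352.7, 109.7 and 72.8 CPM across WT and 130.6, 84.6 and 268.3 CPM across Srp72+/-. Hist1h4k had far fewer reads, at 8.69, 25.4, 6.14 and 5.08 CPM across WT and 8.0, 6.16 and 22.3 CPM across Srp72+/-. Their TPM levels were nonetheless close, at means of 67 and 62.1, because the short Hist1h4k model has the small effective length given above. Hist1h4n, whose coding sequence is the same as that of Hist1h4m, was nearly even, at 1.91, 4.92, 3.17 and 2.56 CPM across WT and 2.59, 2.19 and 1.88 CPM across Srp72+/-. Hist4h4, which lies outside the large clusters, was at 4.60, 12.2, 3.84 and 3.42 CPM across WT and 6.41, 7.01 and 2.67 CPM across Srp72+/-. WT 2 was highest for Hist4h4 too, but the library labelled Srp72+/- 3 was its lowest.

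**Figure D2:**
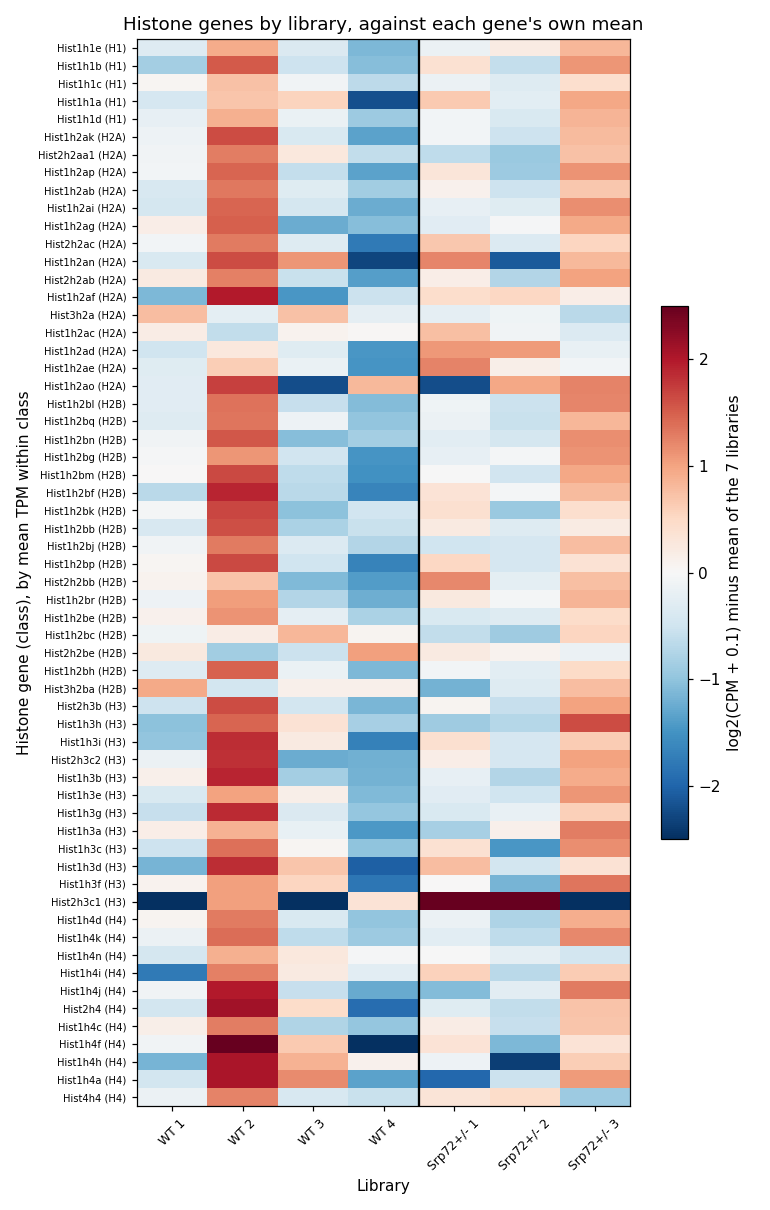
Each row is 1 of the 60 tested histone genes and each column a library, and the colour gives log2(CPM + 0.1) minus the gene's mean over the 7 libraries (red higher, blue lower, with a line between WT and Srp72+/-). WT 2 is red for most rows and is the highest library for 45 of the 60 genes, beside 22.8% of all tested genes. WT 4 is the lowest for 39, and Hist3h2a, Hist1h2ac, Hist2h2be, Hist1h2bc and Hist3h2ba do not share the pattern.

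The genotype comparison asks whether histone mRNA differs between the Srp72+/- and WT libraries, and no histone gene passed the test. All were sorted as LT-HSCs, but the HSC markers in WT 2 summed to 165 CPM against 2030 to 2565 CPM in the other WT libraries. Of the 67 genes, 60 had enough reads to be tested. The 7 others were Hist1h1t, Hist1h2aa, Hist1h2ah, Hist1h2ba, Hist1h4b, Hist1h4m and Hist2h2aa2. In all, 0 of 60 passed a false discovery rate of 0.05 in edgeR's quasi-likelihood test adjusted over 20314 genes. Over all genes 0 passed as well, 0.0% of those tested. DESeq2 called 9 genes in all and 0 histone genes. Without adjustment 0 of the 60 histone genes had p below 0.05, against 1.8% of all genes tested. By direction 27 of the 60 were higher and 33 lower in Srp72+/-, and their median log2 fold change was -0.04 beside -0.01 for all genes. In 0 of the 60 did the CPM values of the groups not overlap, against 3.57% of all genes tested.

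By class, 4 of 5 tested H1 genes were higher in Srp72+/- (median log2 fold change 0.25), for H2A 9 of 15 (0.05), for H2B 5 of 17 (-0.09), for H3 7 of 12 (0.06) and for H4 2 of 11 (-0.25). The log2 differences between the groups' mean log2 CPM totals were 0.39 for H1, 0.12 for H2A, 0.20 for H2B, 0.28 for H3 and 0.00 for H4. Within the WT group alone the SD of these log2 totals was between 0.82 (H1) and 1.18 (H3), larger than each of the differences. In TPM the differences were 0.60 for H1, 0.40 for H2A, 0.46 for H2B, 0.45 for H3 and 0.26 for H4, each again smaller than the WT SD of that class (0.67, 0.82, 0.76, 0.92 and 0.70).

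Genes with the smallest unadjusted p illustrate the size of change that stayed within the spread. Hist1h2ad was at 0.448, 0.831, 0.528 and 0.180 CPM across WT and 1.54, 1.52 and 0.576 CPM across Srp72+/-, with a log2 fold change of 1.28 (SE 0.69, edgeR quasi-likelihood test, unadjusted p = 0.0995). The third Srp72+/- value lay inside the WT range. Hist2h3c1 had a log2 fold change of 3.06 (SE 1.78, edgeR unadjusted p = 0.122) and reads split erratically, at 0.000, 1.15, 0.000 and 0.674 CPM across WT and 5.67, 5.80 and 0.000 CPM across Srp72+/-. It shares its coding sequence with Hist2h3c2, and summed the pair was at 17.15, 68.68, 7.914 and 8.767 CPM across WT and 26.9, 19.95 and 38.03 CPM across Srp72+/-, inside the WT range in 3 of 3 libraries. Hist2h2bb was at 2.19, 3.45, 0.911 and 0.719 CPM across WT and 4.87, 1.74 and 3.55 CPM across Srp72+/- (log2 fold change 0.90, edgeR unadjusted p = 0.224).

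In the other direction, Hist3h2a was at 16.3, 7.99, 15.9 and 8.09 CPM across WT and 8.10, 8.79 and 5.91 CPM across Srp72+/-. WT 1 and WT 3 stood near 16 CPM and the 5 other libraries at 8.79 CPM or less, and the log2 fold change was -0.67 (SE 0.41, edgeR unadjusted p = 0.142). Its neighbour Hist3h2ba was at 2.19, 0.767, 1.20 and 1.21 CPM across WT and 0.424, 0.848 and 1.94 CPM across Srp72+/- (log2 fold change -0.31, SE 0.68). Hist1h4h was at 0.336, 3.90, 1.68 and 0.944 CPM across WT and 0.794, 0.0892 and 1.39 CPM across Srp72+/-, spread too widely to be told apart (log2 fold change -1.15, SE 1.03). Hist1h4n, described above, had a log2 fold change of -0.50 (SE 0.50).

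Single libraries set the direction of the comparison. Without WT 2, 53 of 59 tested histone genes were higher in Srp72+/-, and their median log2 fold change was 0.71 beside 0.04 for all genes. By class these were 5 of 5 H1, 14 of 15 H2A, 14 of 17 H2B, 12 of 12 H3 and 8 of 10 H4 genes. Still 0 passed the threshold (edgeR, smallest adjusted p = 0.977), as did 0.0% of all genes. At an unadjusted p below 0.05, 8 of the 59 were higher and 0 lower, 13.6% beside 2.61% of all genes called higher in the same way: Hist1h1e, Hist1h1b, Hist1h2af, Hist1h2bf, Hist1h2br, Hist1h2bl, Hist2h3b and Hist2h3c2. Without the library labelled Srp72+/- 3 the direction was the opposite, with 11 of 60 higher and a median of -0.46. Without WT 4 it was 12 of 60 and -0.31. Without both WT 2 and Srp72+/- 1, the pair richest in mature blood cell transcripts, 52 of 61 were higher (median 0.78), 10 had an unadjusted p below 0.05 and 0 passed the threshold. Of all 21073 genes in that fit 10806 were higher (median 0.02), 849 (4.03%) had an unadjusted p below 0.05 and 0 (0.0%) passed.

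**Figure D3:**
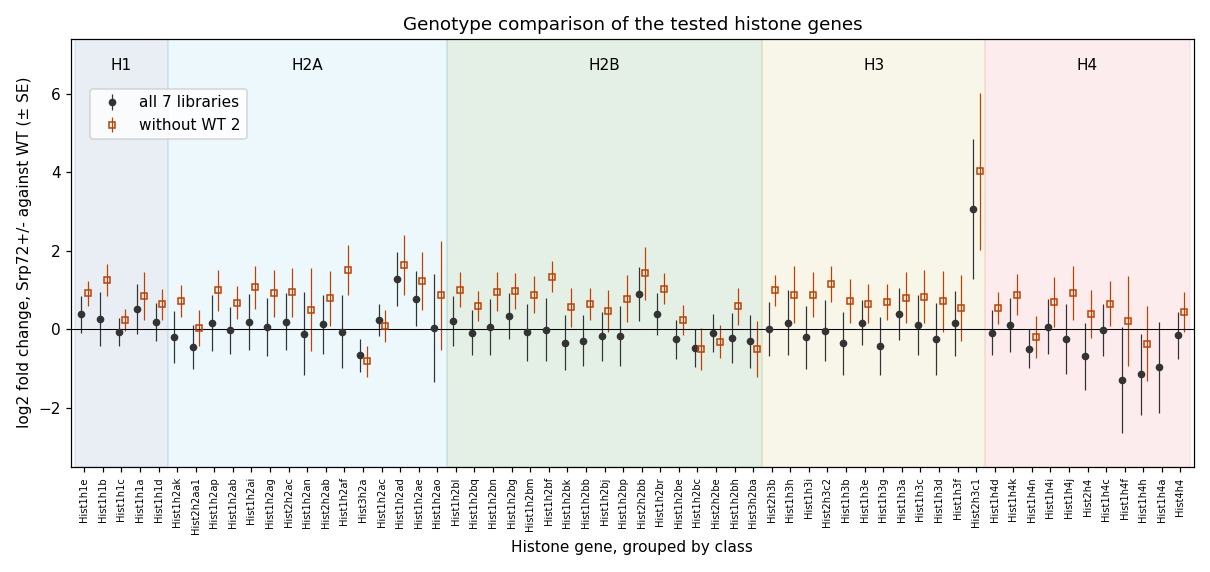
Log2 fold change of each tested histone gene, Srp72+/- against WT, with its SE, from all 7 libraries (filled circles) and without WT 2 (open squares), with the classes shaded. With all libraries 27 of 60 points lie above 0, and without WT 2 53 of 59 do. Hist2h3c1, which has the same coding sequence as Hist2h3c2, has the largest value in both.

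Histone levels were compared with Mki67, which encodes the Ki-67 antigen of cycling cells. Mki67 was at 461.9, 2078.7, 559.5 and 331.8 CPM across WT and at 1445.4, 623.5 and 1038.1 CPM in those labelled Srp72+/- 1, 2 and 3. The log2 histone total and log2 Mki67 had r = 0.85 and rho = 0.82 over the 7 libraries. Without WT 2 and Srp72+/- 1, the libraries farthest from the Mki67 median, r was 0.95 and rho 0.60 over 5 libraries. No p is given for a sum over chosen genes. Neither measure moved in exact step: Srp72+/- 1 had the second highest Mki67 but only 0.782 histone CPM per Mki67 CPM, while the other libraries had between 1.34 (WT 2) and 2.18 (WT 1).

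Gene by gene, 55 of the 60 tested histone genes correlated positively with Mki67 in log2 CPM, with a median r of 0.79 and a range from -0.67 to 0.94. The median over all tested genes was -0.03. A positive r with an unadjusted two-sided exact permutation p below 0.05 was found in 36 histone genes (60%) and in 7.41% of all 20313 genes. After Benjamini-Hochberg adjustment over those genes 0 histone genes and 0 genes in all stayed below 0.05, with a smallest adjusted exact permutation p of 0.111 for a histone gene and 0.084 for any gene. Among the abundant members, Hist1h2ak had r = 0.86 (exact permutation p = 0.0121) and rho = 0.82 (exact permutation p = 0.0341), and Hist1h2bl had r = 0.82 (exact permutation p = 0.0282) and rho = 0.86 (exact permutation p = 0.0238). Hist1h1e had r = 0.80 (exact permutation p = 0.0337) and rho = 0.86 (exact permutation p = 0.0238). For Hist1h4d r was 0.77 (exact permutation p = 0.046) and rho 0.68 (exact permutation p = 0.11). Over the 5 libraries left without WT 2 and Srp72+/- 1 the median r of the histone genes was 0.80, with 54 of 60 above 0, and that of all genes was 0.02.

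Other genes of DNA replication ordered the libraries somewhat differently. Top2a, the topoisomerase that untangles replicated DNA, was at 267.9, 817.8, 236.9 and 128.0 CPM across WT and 437.2, 220.8 and 477.8 CPM across Srp72+/-, and put the 7 libraries in the same order as the histone total (r = 0.95, rho = 1.0). Pcna, the sliding clamp of the replication fork, had r = 0.90 and rho = 0.96. Rrm2, a subunit of ribonucleotide reductase, had r = 0.66 and rho = 0.71, since it was at 229.5 CPM in WT 2 and 143.3 CPM across Srp72+/- 1 but at 47.4 CPM in the library labelled Srp72+/- 3. H2afx, named after its values were seen, encodes the H2A variant that is phosphorylated at DNA breaks. It was at 103.5, 296.4, 120.9 and 85.7 CPM across WT and 114.3, 122.9 and 293.8 CPM across Srp72+/-, high in the same pair of libraries as the histone total (r = 0.96, rho = 0.68). Without those 2 libraries, which are the farthest from its median, r was 0.78 and rho 0.10, so the relation rests on them.

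**Figure D4:**
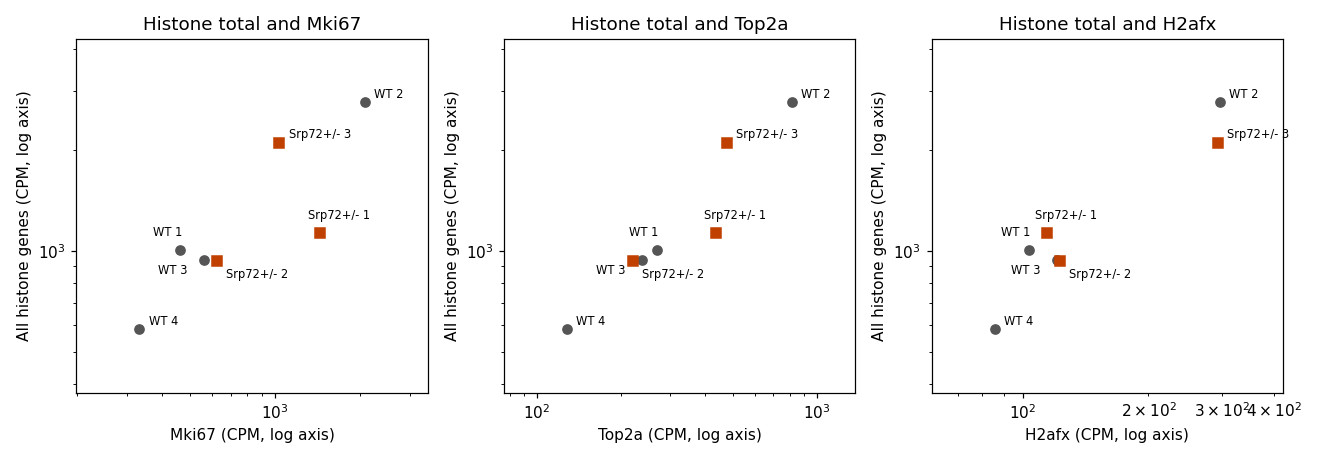
Histone total in CPM against Mki67, Top2a and H2afx in CPM, all on log axes, with 1 point per library (grey circles WT, orange squares Srp72+/-). For Mki67, Srp72+/- 1 is second to WT 2 (1445.4 CPM) with a histone total of 1130 CPM, below that of the library labelled Srp72+/- 3, the order of the libraries is shared by Top2a and the total, and WT 2 and the library labelled Srp72+/- 3 stand apart for H2afx.

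Most of the histone genes varied together. Over the 1770 pairs of tested genes the median r between log2 CPM values was 0.73, and 40.5% of pairs had r above 0.8. These correlations share the 7 libraries and their scaling, and genes are not independent replicates. WT 2 was higher than the mean of the other WT libraries for 55 of 60 histone genes, with a median ratio of 3.58, and for 48.5% of all tested genes. The 5 exceptions were Hist2h2be, Hist3h2a, Hist3h2ba, Hist1h2ac and Hist1h2bc, and the same 5 had a negative r with Mki67. Mki67 was itself highest in WT 2, so for the genes that were low in WT 2 the negative r is not a separate trait. For Hist1h2bc both were slight, with WT 2 at 0.912 times the mean of the other WT libraries and r = -0.05. Among the 55 others r with Mki67 was as low as 0.09 for Hist1h2ao, which was at 0.0 CPM in WT 3 and Srp72+/- 1 and at most 1.41 CPM. The 5 genes were singled out after their values were seen.

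Hist2h2be was at 14.3, 6.52, 8.25 and 24.6 CPM across WT and 14.1, 12.8 and 10.9 CPM across Srp72+/-, lowest in WT 2 and highest in WT 4, the reverse of the histone total (r with Mki67 -0.67). Hist1h2ac was lowest in WT 2 as well, at 9.13, 5.24, 8.59 and 8.23 CPM across WT and 13.6, 7.59 and 6.31 CPM across Srp72+/-. Hist1h2bc was at 5.44, 6.71, 10.5 and 6.20 CPM across WT and 3.81, 3.12 and 8.55 CPM across Srp72+/-, with no clear relation to the total. Of these genes, 4 have models that run 742 (Hist1h2bc), 1700 (Hist3h2a), 2058 (Hist1h2ac) and 2192 (Hist2h2be) bases past the stop codon, and Hist3h2ba runs 213. The polyadenylation signal letters AATAAA lay in the last 50 bases of 3 of the 5 models. Of the 6 tested genes with over 1500 bases past the stop, 3 were higher in WT 2 than the mean of the other WT libraries, namely Hist1h1d (4931 bases), Hist4h4 (2515) and Hist1h2be (1906), and of the 54 with fewer bases 52 were. Across the 60 genes, which are not independent replicates, the bases past the stop and the log2 ratio of WT 2 to the other WT mean had rho = -0.34. The part of model length in the pattern was not tested. Of the 11 tested genes with AATAAA at the model's end, 8 were higher in WT 2, and of the 49 without it 47 were.

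Head-to-head partners did not always move together. The 10 pairs with both genes tested had r between log2 CPM values from -0.76 to 0.99, with a median of 0.68. Over all 1770 pairs of tested histone genes the median was 0.73. The head-to-head pairs with a negative r held genes already named above as exceptions. The closest was Hist1h2bl with Hist1h2ai (r = 0.99), 279 bases apart. Hist1h2ai was at 4.48, 16.8, 4.46 and 2.52 CPM across WT and 5.30, 4.95 and 13.7 CPM across Srp72+/-. The most opposed was Hist2h2ac with Hist2h2be (r = -0.76), whose starts are 239 bases apart around the window printed above. Hist2h2ac was at 3.25, 8.57, 2.73 and 0.944 CPM across WT and 5.51, 2.68 and 5.06 CPM across Srp72+/-. WT 2 was thus the highest library for Hist2h2ac and the lowest for Hist2h2be, and WT 4 the lowest and the highest. Hist1h2ac and Hist1h2bc, 251 bases apart, had r = -0.40.

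**Figure D5:**
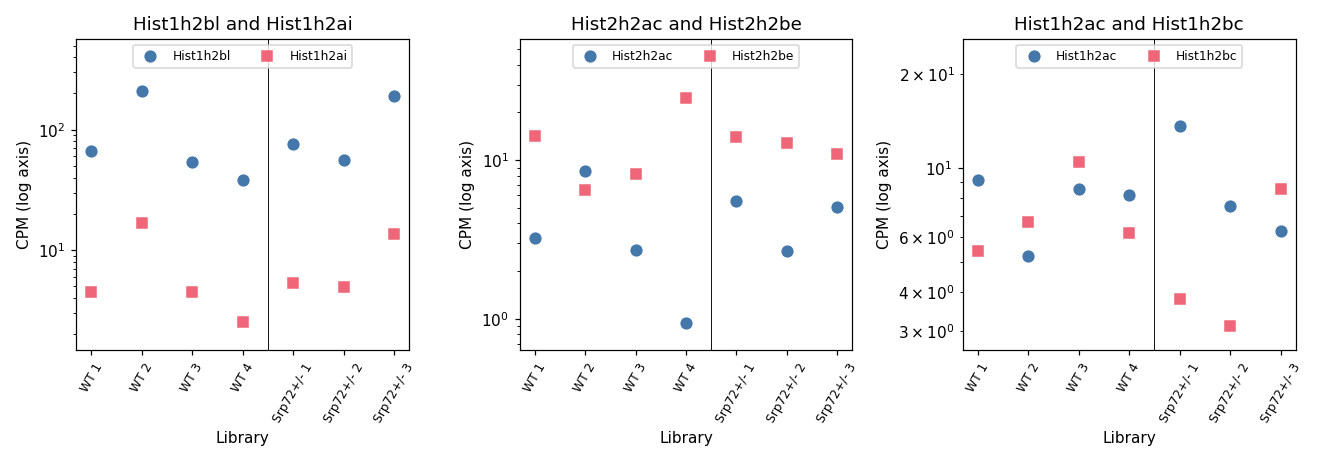
CPM on log axes in each library for 3 head-to-head pairs of an H2A and an H2B gene, with 1 marker per gene and a line between WT and Srp72+/-. Hist1h2bl and Hist1h2ai rise and drop in the same libraries, Hist2h2ac and Hist2h2be stand closest in WT 2 (8.57 and 6.52 CPM) and farthest apart in WT 4 (0.944 and 24.6 CPM), and Hist1h2ac and Hist1h2bc change order between libraries.

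The genes that make and handle histone mRNA were compared in the same fit. In the 4 lists that follow, 0 genes had an unadjusted p below 0.05 in edgeR's test, and DESeq2 called 0. Of the 20 genes for histone gene transcription and mRNA processing, 20 were tested, 17 were higher and 3 lower in Srp72+/-, 0 passed the threshold and the median log2 fold change was 0.15. Slbp was at 71.7, 137.8, 57.7 and 50.9 CPM across WT and 103.3, 53.3 and 95.8 CPM across Srp72+/-, following the histone total (r = 0.88, rho = 0.96). Npat, by contrast, was nearly level, at 53.8, 40.7, 51.9 and 46.5 CPM across WT and 56.1, 50.4 and 63.6 CPM across Srp72+/- (r = -0.04 with the total). The smallest p values of the list belonged to Sympk, a scaffold of the cleavage complex (log2 fold change 0.46, edgeR unadjusted p = 0.101), Zfp473, a partner of the U7 particle that cuts histone pre-mRNA (0.73, edgeR unadjusted p = 0.162), and Mblac1, an endonuclease (-1.23, edgeR unadjusted p = 0.19). None of these passed the threshold. Without the library labelled Srp72+/- 3, 10 of the 20 were higher and the median was 0.00.

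Of the 19 histone chaperones, which carry histones to DNA, 15 were higher and 4 lower in Srp72+/-, 0 passed and the median was 0.14. The smallest p values were those of Cabin1 (log2 fold change 0.31, edgeR unadjusted p = 0.173), Atrx (-0.24, edgeR unadjusted p = 0.222) and Mcm2 (0.58, edgeR unadjusted p = 0.237). Atrx was at 448.7, 445.7, 426.5 and 384.9 CPM across WT and 374.5, 338.6 and 368.1 CPM across Srp72+/-. Its groups thus did not overlap, as was so for 3.57% of all genes tested. For the chaperones, 7 of 19 were higher (median -0.05) without the library labelled Srp72+/- 3, 9 without Srp72+/- 1 (-0.01) and 9 without WT 4 (0.00). Of the 11 replacement histones, which are made outside S phase as well, 5 were higher and 6 lower, 0 passed and the median was 0.00. Without the library labelled Srp72+/- 3 the replacement histones had 3 of 11 higher (median -0.28). Their smallest p values belonged to H2afy (-0.24, edgeR unadjusted p = 0.419), Cenpa, the centromeric H3 (0.39, edgeR unadjusted p = 0.479), and H2afz (-0.22, edgeR unadjusted p = 0.627). H2afz had 870.8 CPM in WT 2 and 262.2 to 469.9 CPM in the other libraries. H1f0, a replacement linker histone that the naming rule does not cover, was lowest in WT 2 at 20.2 CPM, against 39.0 to 90.4 CPM elsewhere.

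Of the 32 genes of S phase and proliferation, 23 were higher and 9 lower in Srp72+/-, 0 passed and the median was 0.17. Prim1, a primase subunit (0.57, edgeR unadjusted p = 0.104), Tk1, thymidine kinase (0.62, edgeR unadjusted p = 0.146), and Mcm2, a helicase subunit that is also on the chaperone list, had the smallest p values. Mki67 had a log2 fold change of 0.27 (SE 0.63, edgeR unadjusted p = 0.68). WT 2 was the highest library for 21 of the 32, and for 22.8% of all tested genes. Without WT 2, 31 of 32 were higher in Srp72+/-, with a median of 0.69, 14 at an unadjusted p below 0.05 and 0 past the threshold. Of all 19856 genes in that fit 10544 were higher, with a median of 0.04 and 962 (4.84%) at an unadjusted p below 0.05. The direction turned when other libraries were left out, with 13 of 32 higher (median -0.02) without the library labelled Srp72+/- 3, 14 (-0.01) without Srp72+/- 1 and 15 (-0.03) without WT 4.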

How the data were processed

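RNA sequencing of libraries from cells sorted as LT-HSCs (4 WT, 3 Srp72+/-) was analysed. Per the labels' protocols, total RNA was column-extracted, amplified with the Ovation RNA-seq V2 system and prepared with a TruSeq V2 kit. The deposited tables hold estimated counts per transcript, made with Salmon 0.12.0 per the submitters' processing notes, with TPM values and effective lengths deposited beside them. Neither the transcript release nor the bias options were stated (not given in the sources used here). GENCODE M21 (GRCm38) held 136176 of the 136288 transcripts, and 112 were left out (0.0413% to 0.0622% of reads). Counts and TPM were summed per gene, and counts were rounded to whole numbers. The authors' tool divided reads among near-identical histone genes, which makes values of single copies uncertain, and antisense overlaps are uncertain because strand use is not given.

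After filterByExpr (at least 10 counts, total of 15) and TMM scaling, genotypes were compared by edgeR 4.0.16's quasi-likelihood test (R 4.3.3, Benjamini-Hochberg adjustment over 20314 genes, threshold 0.05), with no covariate. CPM uses effective library sizes, and 3 counts, the floor, equal 0.091 to 0.192 CPM. Correlations with Mki67 used log2 CPM (prior count 2) and all 5040 pairings. Totals and single non-member genes used log2(CPM + 0.1). Named were the 3 genes of highest mean TPM per class, those past the threshold, the 3 with the smallest p in each direction, the Hist3 and Hist4 genes, and from the lists Mki67, Slbp, Npat and the 3 smallest p. Members and lists were chosen with earlier results of these data known. Reads are not independent molecules without molecular identifiers, and floors cover counting error only. The procedures were tested on simulated data. The counts simulated for edgeR's test had less spread than these libraries (common biological coefficient of variation 0.628). The power of that test at the present spread was therefore not tested. Alternatives were RLE and upper-quartile scaling, other filters, a length offset, DESeq2 1.42.0, an FDR of 0.1, a replicate block, summed identical coding sequences, and libraries left out.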

Additional observations from a re-analysis of the deposited data

Results flagged for a closer look

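Among the 4 WT libraries, WT 2 stood apart from the other 3 in 7 values, with a gap to the next library that was, as a share of the whole WT range, above Dixon's critical value for 4 samples. The share of the range taken by the gap was 0.855 for the H3 total, 0.91 for Hist1h1b, 0.833 for Hist1h2bl, 0.897 for Hist2h3b and 0.865 for Hist4h4. It was 0.87 for Mki67 and 0.833 for H2afx. In all 7 WT 2 was the high library. The ratio was computed for 32 values, and chance alone gives about 1 in 20 for values that are independent. These values vary together across libraries, so that rate cannot be set against their count. The Srp72+/- group, with 3 libraries, was not examined in this way.

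Histone pseudogenes, left out of all totals, held reads too. The highest number in a library was 445 for Hist1h2aj and 108 for Hist1h2al, both in the library labelled Srp72+/- 3, and 25 for Hist3h2bb-ps in Srp72+/- 2. How reads were divided between such copies and the genes they resemble was not examined.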

How the results depend on the processing

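The count of histone genes past the threshold was 0 under every alternative run. Over all genes it was 9 with DESeq2 in place of 0, and between 0 and 1 when a library was left out, the 1 without WT 4. Same-numbered libraries of the groups did not deviate together (correlations -0.316, -0.162 and 0.002). Of the 3 Srp72+/- libraries 0 correlated best with the WT library of its own number. The labels do not say whether the numbers stand for a pairing, and these few correlations cannot decide it. With the replicate block 0 genes passed, 20 of 60 histone genes were higher (median -0.12), and 139 genes in all had p below 0.05 against 365.

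Of 198 single-gene fold changes under alternatives other than leaving out 1 library, 183 kept their direction. Without WT 2 and Srp72+/- 1 the log2 fold change turned to 0.30 for Hist1h1c, 0.81 for Hist1h2ak, 0.24 for Hist2h2aa1, 0.73 for Hist1h2bq, 0.81 for Hist1h3i, 0.67 for Hist1h4d and 0.29 for Hist4h4. With the replicate block it turned to -0.01 for Hist1h2ap, -0.01 for Hist1h2bn, -0.21 for Hist1h3h and -0.10 for Hist1h4k. Hist2h3b, at 0.00, was -0.04 with DESeq2, -0.04 with RLE scaling, -0.00 with a mean of at least 10 counts and -0.01 with a length offset. Leaving out single libraries gave ranges of -0.25 to 1.25 (Hist1h1b), -0.33 to 0.23 (Hist1h1c), -0.65 to 0.71 (Hist1h2ak), -1.18 to 0.02 (Hist2h2aa1), -0.43 to 0.99 (Hist1h2ap), -0.50 to 1.01 (Hist1h2bl), -0.59 to 0.60 (Hist1h2bq), -0.66 to 0.96 (Hist1h2bn), -0.54 to 0.99 (Hist2h3b), -1.17 to 0.88 (Hist1h3h), -0.58 to 0.88 (Hist1h3i), -0.68 to 0.54 (Hist1h4d), -0.68 to 0.88 (Hist1h4k), -1.07 to 0.04 (Hist3h2ba) and -0.43 to 0.44 (Hist4h4). The cause was not tested.

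The log2 difference of the histone totals was 0.44 with TPM, 0.67 without WT 2, -0.08 without WT 4 and -0.12 without the library labelled Srp72+/- 3, against 0.23 with all libraries. The r of the total with Mki67 was 0.74 on TPM. In genes at few reads, such as Hist1h2ad and Hist1h4h, depth limits the comparison.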
